A study of Danio rerio with 6 samples.

Results

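The genes described here are named for the eukaryotic translation initiation factors. Those factors bring a messenger RNA, the initiator transfer RNA and the ribosomal subunits together. Some genes with such names encode inhibitors of initiation or proteins of other steps, as given below. All genes were taken by name from a table of 25432 zebrafish genes. The rule kept records whose symbol begins with eif and a digit, leaving out the eif2ak kinases, and 61 records met it. By name 11 belong to the eIF2 group, 17 to eIF3, 24 to eIF4 and 9 to eIF1, eIF5, eIF5A, eIF5B and eIF6. Their levels were read in 3 libraries of whole zebrafish embryos treated with a wbp11 morpholino (wbp11-MO) and in 3 of embryos that received a control one (control-MO). Each library came from a pool of 50 embryos taken at 72 hours post fertilization, and the title of the series calls loss of wbp11 a model of VACTERL association. Morpholinos are antisense oligomers used to stop either translation or splicing of a chosen RNA, and the labels do not say which of these the one against wbp11 does. The labels name no strain, transgene or drug for either group. Pooled libraries show differences between pools, not between embryos.

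Translation of most messenger RNAs begins when eIF2, loaded with GTP, carries the initiator methionyl transfer RNA to the small ribosomal subunit. The large complex eIF3 binds that subunit, while the cap-binding assembly eIF4F, made of eIF4E, eIF4G and the helicase eIF4A, brings in the messenger RNA. Scanning to the start codon is guarded by eIF1 and eIF1A, eIF5 sets off GTP hydrolysis by eIF2, and eIF5B joins the large subunit. Cells limit initiation chiefly at eIF2, through phosphorylation of its alpha subunit, and at eIF4E, through the 4E-binding proteins (4E-BP) that the kinase mTOR controls.

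Poly(A) RNA of each pool was sequenced, and the libraries held between 11219706 and 13669995 counted reads. Replicates of a group correlated at 0.990 to 0.992 in log2 CPM (counts scaled to library size, as CPM in what follows; Pearson), libraries of different groups at 0.914 to 0.922, and no library stood apart from its group. The labels call the pools biological replicates without saying whether they came from separate clutches, so p-values measure the spread between pools. The wbp11 record on chromosome 3 stood at 23.0, 25.7 and 25.4 CPM in the wbp11-MO libraries, against 14.7, 12.4 and 17.6 CPM in the control-MO libraries, and it was called higher (log2 fold change 0.72 ± 0.12, ± SE, adjusted p = 4.71e-06 by edgeR). The target transcript was thus not lower, and its level does not check the labels. A further wbp11 record on an unplaced scaffold stood at 10.4, 9.21 and 10.5 CPM in the wbp11-MO libraries, against 8.97, 6.99 and 8.38 CPM in the control-MO libraries, and did not pass (edgeR adjusted p = 0.103). Markers of embryo tissues were detected, and several moved between the groups. The summed level of 5 photoreceptor markers ran from 30.1 to 56.7 CPM in wbp11-MO and from 2619 to 2935 CPM in control-MO, and all 5 fell. The summed level of 5 exocrine pancreas markers ran from 3.08 to 4.52 CPM in wbp11-MO and from 190.7 to 212.3 CPM in control-MO, and all 5 fell. Neuron markers summed to between 728.9 and 781.7 CPM in wbp11-MO and between 1050 and 1096 CPM in control-MO, with 4 of 5 lower and 1 higher. The exocrine pancreas marker cel.1 had 3, 0 and 3 counts in the wbp11-MO libraries, and no other of these 15 markers was at 0 counts in any library. Of 5 markers each, liver had 1 higher and 4 lower, red blood cells 3 higher and 1 lower, skeletal muscle 2 higher and 1 lower, epidermis 2 higher and 2 lower, and germ cells 1 higher and 0 lower. In whole embryos fewer cells of a type and less RNA per cell cannot be told apart, and the part of tissue make-up in the results below was not tested.

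Most initiation factor genes were modestly higher in wbp11-MO embryos. Of 60 genes tested, 44 rose and 4 fell (edgeR quasi-likelihood test, Benjamini-Hochberg adjusted p under 0.05 over all genes), and 12 did not pass. Over all 20012 genes tested the same threshold was passed by 61.7%, with 30.5% higher and 31.2% lower, so the share of members that fell, 6.67%, lies below that of all genes and the share that rose, 73.3%, above it. Initiation factors are abundant, and among the 8380 genes with a mean of at least 20 CPM 74.3% were called, 45.3% higher and 29% lower, against 44 higher and 1 lower among the 55 members at that level. The median log2 fold change was 0.32 over the members and 0.0013 over all genes tested. With a mean of at least 20 CPM it was 0.34 over the members and 0.12 over all genes. The record left untested, eif4e1b, an oocyte form of the cap-binding protein in Xenopus, had 0, 2 and 0 counts in the wbp11-MO libraries and 2, 1 and 0 in the control-MO libraries, too few for a comparison. Averages below are means ± SD over 3 libraries.

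The changes were small in size. The 44 genes that rose did so by between 1.09- and 2.10-fold with a median of 1.27-fold, and 33 of them stayed below a log2 fold change of 0.5. Past a 2-fold change there was 1 gene higher, eif4enif1, and 1 lower, eif3bb, while 5.9% of all genes tested were called at least 2-fold higher and 14.3% at least 2-fold lower. Of the 8380 genes with a mean of at least 20 CPM, 421 were called at least 2-fold higher and 566 at least 2-fold lower. The groups did not overlap for 51 of the 60 members, against 65.4% of all genes tested. With a mean of at least 20 CPM this held for 46 of 55 members and for 6367 of 8380 genes. Replicate spread was narrow, with a median coefficient of variation of 3.66% in wbp11-MO and 4.25% in control-MO. Counted reads given to the 61 genes made up between 1.01% and 1.03% of a wbp11-MO library and between 0.906% and 0.914% of a control-MO library.

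**Figure D1:**
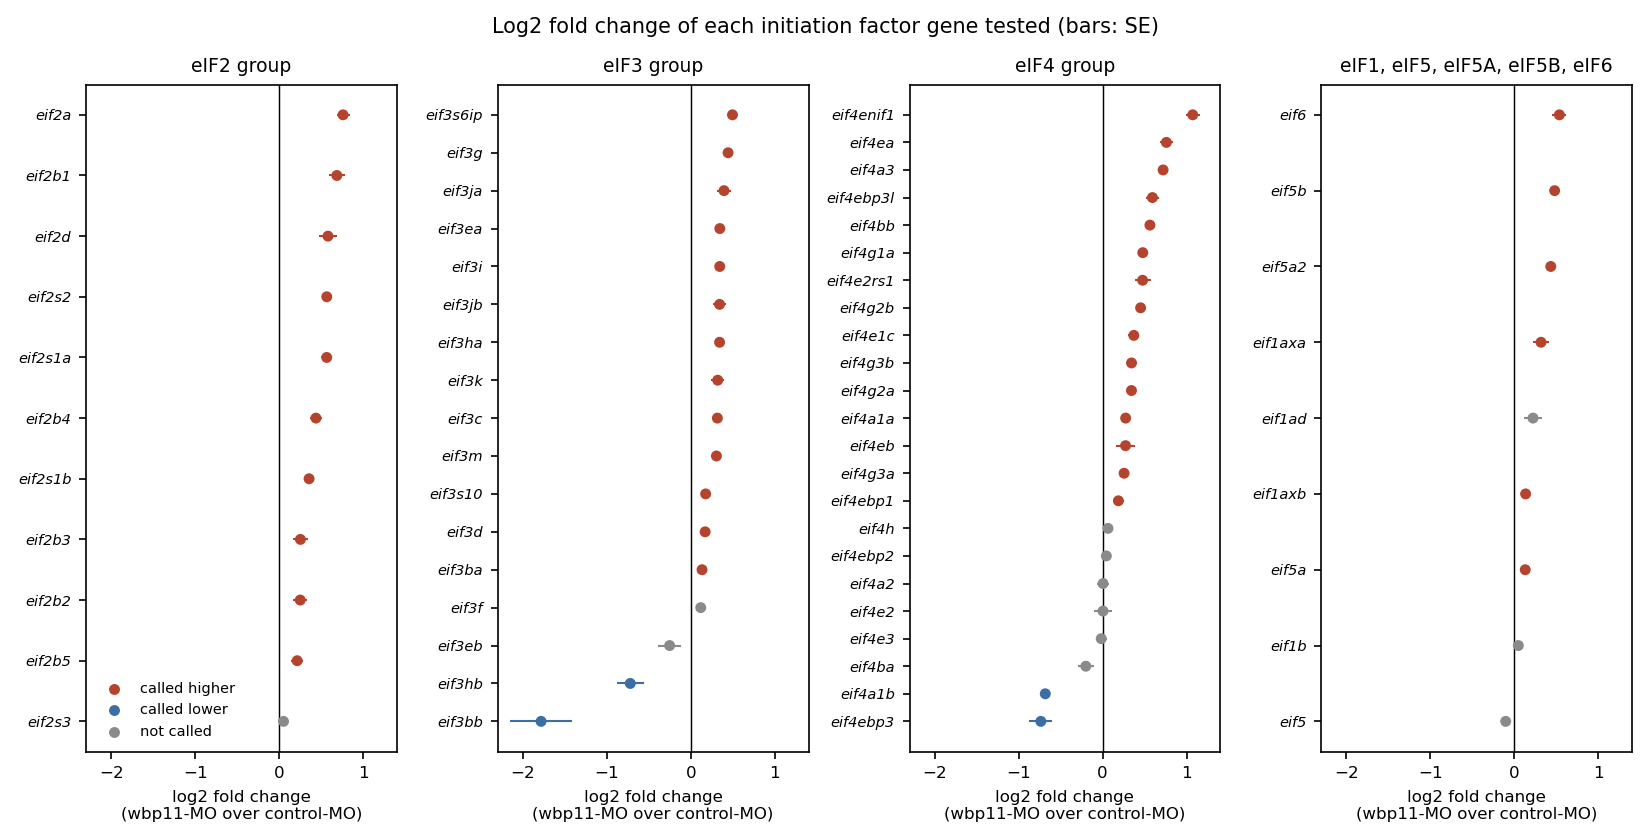
Log2 fold change (wbp11-MO over control-MO, x axis) of the 60 initiation factor genes tested, in 4 panels by group, with SE as bars and colour for the call. All 11 genes of the eIF2 panel lie right of 0, and the 4 genes called lower (eif3bb, eif3hb, eif4a1b and eif4ebp3) lie in the eIF3 and eIF4 panels.

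**Figure D2:**
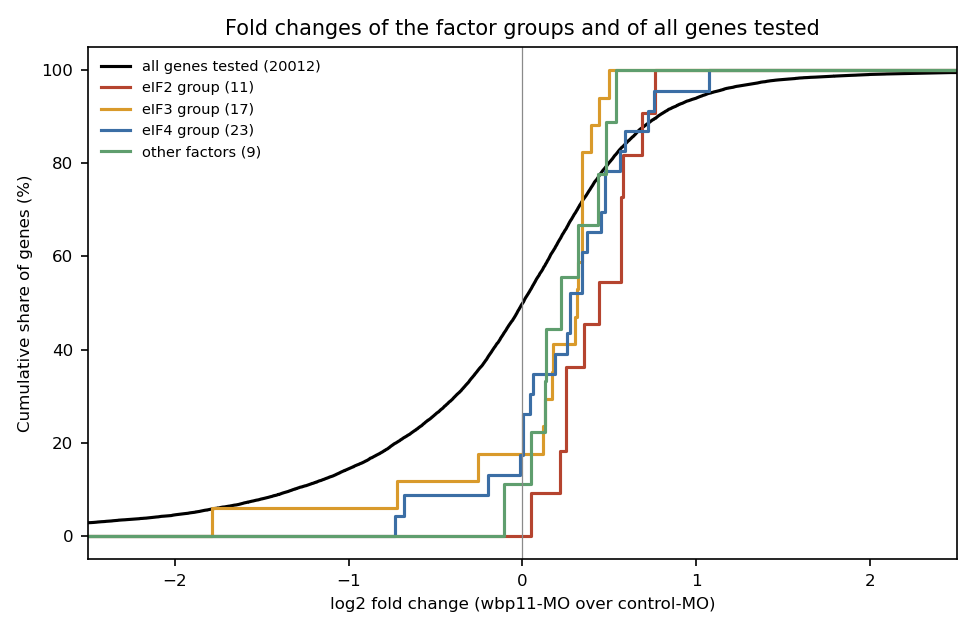
Cumulative share of genes (y axis, percent) against log2 fold change (wbp11-MO over control-MO, x axis) for all 20012 genes tested and for each factor group. The black curve of all genes crosses its middle at 0.0013, while the medians of the eIF2, eIF3, eIF4 and remaining groups are 0.44, 0.31, 0.27 and 0.22.

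In the eIF2 group, which supplies and recharges the initiator transfer RNA carrier, 10 of 11 genes rose (90.9%, against 30.5% of all genes tested). Of these 11 genes 0 fell, against 31.2% of all genes tested, and their median log2 fold change was 0.44. Among genes with a mean of at least 20 CPM 45.3% were higher and 29% lower. The groups did not overlap for any of the 11, against 65.4% of all genes tested and 6367 of the 8380 with a mean of at least 20 CPM. The beta subunit gene eif2s2 (ENSDARG00000053047, chromosome 6, 49995781 to 50011926, GRCz11) stood at 267, 278 and 291 CPM in the wbp11-MO libraries, against 183, 183 and 198 CPM in the control-MO libraries. Every wbp11-MO library lay above every control-MO library. It was also the most abundant eIF2 gene per length in both groups together, and its log2 fold change was 0.57 ± 0.053 (± SE, adjusted p = 9.21e-11 by edgeR). The alpha subunit, which takes the inhibitory phosphate, is encoded by a pair of genes. Its copy eif2s1a (chromosome 17, 34244345 to 34254233) had 71.9, 70.6 and 66.8 CPM in wbp11-MO, against 45.3, 48.4 and 47.7 CPM in control-MO, and a log2 fold change of 0.57 ± 0.068 (± SE, adjusted p = 1.54e-08 by edgeR). The other copy, eif2s1b, averaged 178 ± 2.08 CPM in wbp11-MO and 139 ± 4.12 CPM in control-MO (SD, n = 3 each) and likewise rose, with a log2 fold change of 0.36 ± 0.053 (± SE, adjusted p = 7.19e-07 by edgeR).

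The gamma subunit gene eif2s3, which encodes the GTP-binding core of eIF2, did not pass the test. Its level was 301, 308 and 311 CPM in wbp11-MO, against 289, 299.7 and 298 CPM in control-MO, with a log2 fold change of 0.052 ± 0.049 (± SE, adjusted p = 0.366 by edgeR). Its groups did not overlap, but the lowest wbp11-MO library was close to the highest control-MO library. The 3 subunits sit in 1 complex, and their per-length levels (CPM per kilobase, copies summed) averaged 177.9 ± 0.485 for alpha, 216.1 ± 9.42 for beta and 141 ± 2.33 for gamma in wbp11-MO, against 134.1 ± 2.59, 145.8 ± 6.69 and 136 ± 2.60 in control-MO (SD, n = 3 each). The per-length ratio of eif2s2 to eif2s3, which needs no library scaling, was 1.53 ± 0.0426 in wbp11-MO and 1.07 ± 0.0442 in control-MO (SD, n = 3 each). That pair was chosen after its values were seen.

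All 5 genes of eIF2B, the exchange factor that reloads eIF2 with GTP and that phosphorylated eIF2 inhibits, were called higher. Over all genes tested 30.5% were called higher, and 45.3% of those with a mean of at least 20 CPM. The alpha subunit gene eif2b1 (ENSDARG00000091402, chromosome 5, 69641166 to 69649062) had 35.2, 35.3 and 37.4 CPM in wbp11-MO, against 20.9, 25.0 and 21.3 CPM in control-MO. The lowest wbp11-MO library was well above the highest control-MO library, and the log2 fold change was 0.69 ± 0.095 (± SE, adjusted p = 2.23e-07 by edgeR). The delta subunit gene eif2b4 followed with a log2 fold change of 0.44 ± 0.069 (± SE, adjusted p = 2.12e-06 by edgeR). Its record shares 19979 bases with BX276101.2 on the same strand, which had 28 counts over the 6 libraries. How reads of that stretch were assigned is not given, so the level of eif2b4 is uncertain. The genes of the beta, gamma and epsilon subunits, the last of these carrying the catalytic site, had smaller log2 fold changes of 0.25, 0.25 and 0.21. These 3 calls were not firm, since each was lost under at least 2 of the 13 alternatives, with adjusted p reaching 0.074 for eif2b2, 0.12 for eif2b3 and 0.107 for eif2b5 (lowest 0.00865, 0.0132 and 0.0149). All 3 were lost with library totals in place of TMM factors (edgeR adjusted p = 0.074, 0.1 and 0.107). Without wbp11-MO replicate 3 the edgeR adjusted p was 0.056 for eif2b2 and 0.062 for eif2b3, without wbp11-MO replicate 2 it was 0.06 for eif2b3 and 0.0618 for eif2b5, and without control-MO replicate 1 it was 0.12 for eif2b3. Per length, eIF2B transcripts stood far below those of eIF2, at between 10.2 and 29.8 CPM per kilobase in wbp11-MO and between 7.55 and 25.0 in control-MO. The lowest per-length value of each group was that of eif2b4, which had the longest gene length of the 5, 6585 bases. By CPM eif2b4 was the highest of the 5, averaging 67.4 in wbp11-MO and 49.7 in control-MO. Per-length ranks thus depend on the gene lengths used.

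The largest fold change of the eIF2 group belonged to eif2a, whose product can deliver initiator transfer RNA without GTP and is not a subunit of eIF2. The gene (ENSDARG00000101061, chromosome 18, 3552641 to 3571583) stood at 54.7, 59.7 and 61.3 CPM in wbp11-MO, against 34.6, 32.1 and 36.7 CPM in control-MO. The groups were far apart, with a log2 fold change of 0.76 ± 0.077 (± SE, adjusted p = 5.24e-10 by edgeR). The record of eif2a shares 6473 bases with CU928071.1 on the same strand, which had 12 counts over the 6 libraries. How reads of that stretch were assigned is not given. The gene eif2d, whose product acts in ribosome recycling and reinitiation, rose by a log2 fold change of 0.58 ± 0.11 (± SE, adjusted p = 2e-05 by edgeR). The eIF2 kinases and phosphatase subunits add and remove the phosphate on the alpha subunit. Of 6 genes on their list, 4 rose (66.7%, against 30.5% of all genes tested) and 0 fell (against 31.2%). The median log2 fold change of the list was 0.55, and its difference from all genes was not tested. The heme-regulated kinase gene eif2ak1 rose, at 29.0 ± 3.24 CPM in wbp11-MO and 15.4 ± 1.25 CPM in control-MO (edgeR adjusted p = 2.02e-08). The stress-induced phosphatase subunit gene ppp1r15a also rose, at 67.7 ± 5.8 CPM in wbp11-MO and 41.9 ± 4.26 CPM in control-MO (edgeR adjusted p = 6.89e-09). The kinase genes eif2ak2 and EIF2AK4 did not pass, with log2 fold changes of -0.72 and 0.21 (edgeR adjusted p = 0.0828 and 0.104).

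In the eIF3 group, the scaffold that binds the small ribosomal subunit, 13 of 17 genes rose (76.5%) and 2 fell (11.8%). Over all genes tested 30.5% were higher and 31.2% lower, and with a mean of at least 20 CPM 45.3% and 29%. The median log2 fold change of the eIF3 genes was 0.31. Their groups overlapped for 1 gene, eif3f, against 6918 of all 20012 genes tested. Of the 8380 genes with a mean of at least 20 CPM, 2013 overlapped. The gene named eif3s6ip in the table, paired with the symbol EIF3L in the list of gene names used here (ENSDARG00000101082, chromosome 13, 43223491 to 43238578), had 239, 243 and 240.2 CPM in wbp11-MO, against 178, 167 and 168 CPM in control-MO. Its log2 fold change, 0.49 ± 0.051 (± SE, adjusted p = 8.68e-10 by edgeR), was the highest of the group, and the wbp11-MO libraries differed little among themselves. The gene eif3g encodes an RNA-binding subunit that takes part in scanning. It stood at 165, 172 and 161 CPM in wbp11-MO, against 122, 116 and 129 CPM in control-MO, a log2 fold change of 0.44 ± 0.056 (± SE, adjusted p = 4.57e-08 by edgeR). The WD-repeat subunit gene eif3i had 245, 241 and 255 CPM in wbp11-MO, against 200.4, 189 and 195 CPM in control-MO, and a log2 fold change of 0.34 ± 0.051 (± SE, adjusted p = 8.18e-07 by edgeR). For both genes the groups were apart.

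The core subunit gene eif3s10, paired with the symbol EIF3A, averaged 516 ± 13.0 CPM in wbp11-MO and 457 ± 3.32 CPM in control-MO (SD, n = 3 each) and had a log2 fold change of 0.18 ± 0.047 (± SE, adjusted p = 0.00175 by edgeR). The core subunit gene eif3c averaged 443 ± 20.3 CPM in wbp11-MO and 356 ± 19.0 CPM in control-MO (SD, n = 3 each), with a log2 fold change of 0.31 ± 0.052 (± SE, adjusted p = 3.98e-06 by edgeR). The gene eif3d, of a subunit that can bind the cap, rose by 0.17 on the log2 scale, a call lost with library totals in place of TMM factors (edgeR adjusted p = 0.083, and 0.00177 to 0.083 across alternatives). The most abundant eIF3 gene per length in control-MO, eif3f, encodes one of the MPN-domain subunits. It had 159, 168 and 171 CPM in wbp11-MO, against 151, 147 and 161 CPM in control-MO, its groups overlapped, and its log2 fold change was 0.12 ± 0.054 (± SE, adjusted p = 0.0628 by edgeR). It passed under 3 alternatives, limma-voom and the fits without wbp11-MO replicate 1 or control-MO replicate 3, with adjusted p between 0.0337 and 0.475 over all of them. The genes eif3m, eif3k, eif3ja and eif3jb rose, with log2 fold changes of 0.30, 0.32, 0.39 and 0.34.

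Across the 13 eIF3 subunits, with the copies of each summed, per-length levels ran from 51.8 CPM per kilobase for eIF3j, the loosely attached subunit, to 202.2 for eIF3e in wbp11-MO. In control-MO they ran from 40.2 for eIF3j to 171.2 for eIF3f. The highest subunit was 3.91-fold above the lowest in wbp11-MO and 4.26-fold in control-MO. The ratio of wbp11-MO to control-MO means lay between 1.09 for eIF3f and 1.41 for eIF3l. Groups did not overlap for 12 of the 13 subunits, the exception being eIF3f. For single gene levels this held for 65.4% of all genes tested. These levels depend on the gene lengths of the table.

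**Figure D3:**
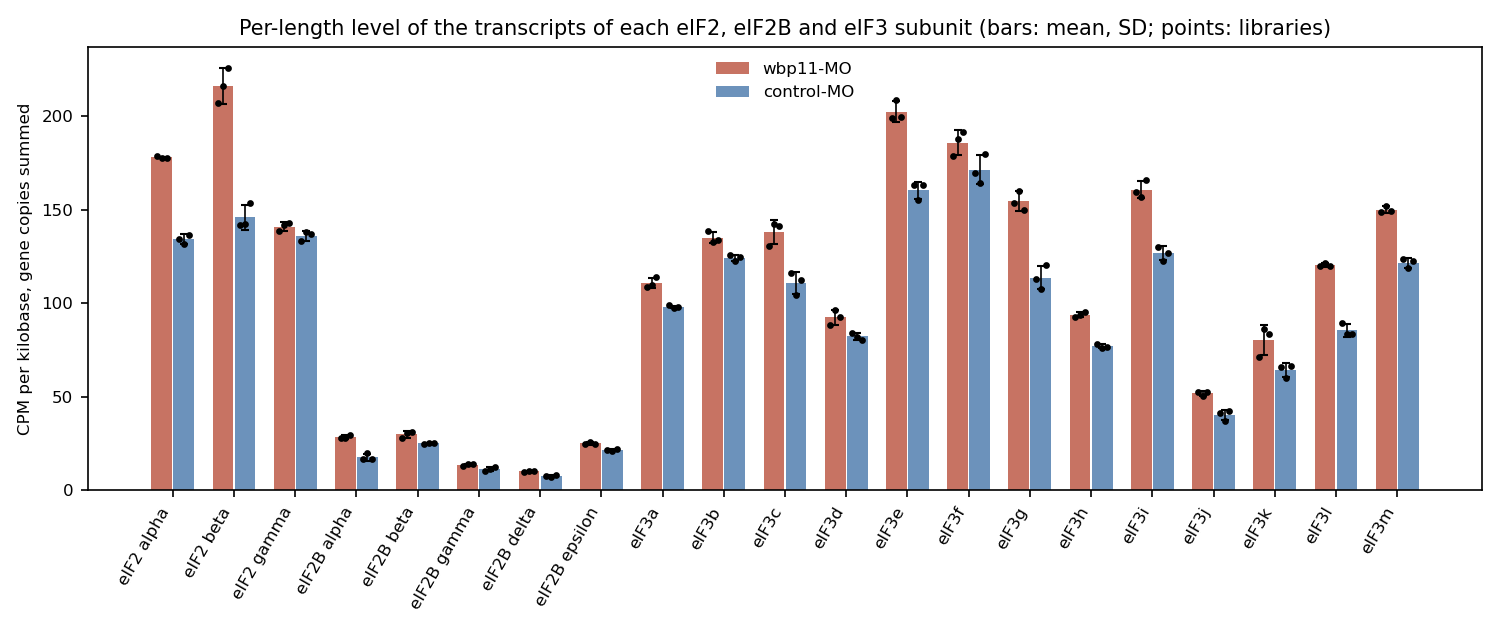
Per-length level (CPM per kilobase, y axis) of each subunit of eIF2, eIF2B and eIF3, gene copies summed, with bars for the mean, black bars for SD and points for the 3 libraries of each group. The means of the eIF2B subunits stay below 30 in both groups, and among the eIF2 subunits gamma differs least, at 141 in wbp11-MO and 136 in control-MO.

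Pairs of gene copies encode 4 of the eIF3 subunits, and in 3 of the pairs the second copy was scarce. The copy eif3ba (chromosome 3, 41714966 to 41724932), which encodes the large core subunit b, had 367, 353 and 356 CPM in wbp11-MO, against 329.8, 323 and 328 CPM in control-MO. Its log2 fold change was small, 0.13 ± 0.048 (± SE, adjusted p = 0.0179 by edgeR), and the call was lost with library totals and without wbp11-MO replicate 1 (edgeR adjusted p = 0.264 and 0.0778, and 0.00618 to 0.264 across alternatives). The copy eif3bb (chromosome 1, 11690360 to 11707665) had 14, 7 and 11 counts in wbp11-MO, against 46, 29 and 39 counts in control-MO. The groups were apart, with 1.03, 0.565 and 0.893 CPM in wbp11-MO and 3.36, 2.47 and 2.84 CPM in control-MO and a log2 fold change of -1.78 ± 0.37 (± SE, adjusted p = 0.000124 by edgeR), but its depth makes the fold imprecise.

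The copies of the subunit h gene also went opposite ways. The copy eif3ha (chromosome 16, 48282321 to 48400639) had 109, 110.1 and 112 CPM in wbp11-MO, against 88.0, 87.3 and 86.0 CPM in control-MO, and rose by 0.34 ± 0.057 on the log2 scale (± SE, adjusted p = 5e-06 by edgeR). The copy eif3hb (chromosome 19, 45856171 to 45960227) had 7.61, 7.03 and 7.14 CPM in wbp11-MO, against 12.9, 9.81 and 13.1 CPM in control-MO. Its groups did not overlap, and its log2 fold change was -0.72 ± 0.16 (± SE, adjusted p = 0.000281 by edgeR). For subunit e, the copy eif3ea (chromosome 16, 38556836 to 38631969) had 350.1, 368 and 351 CPM in wbp11-MO, against 285, 272 and 286 CPM in control-MO, and a log2 fold change of 0.34 ± 0.049 (± SE, adjusted p = 4.27e-07 by edgeR). Its partner eif3eb averaged 11.1 ± 0.442 CPM in wbp11-MO and 13.3 ± 1.58 CPM in control-MO (SD, n = 3 each) and did not pass the test, with a log2 fold change of -0.25 ± 0.14 (± SE, adjusted p = 0.115 by edgeR). With library totals it passed (edgeR adjusted p = 0.0466, and 0.0466 to 0.432 across alternatives). Reads that fit both copies of a pair may have been dropped or split, so the levels of single copies are uncertain.

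In the eIF4 group 15 of 23 tested genes rose (65.2%, against 30.5% of all genes tested) and 2 fell (8.7%, against 31.2%). The median log2 fold change was 0.27. Among genes with a mean of at least 20 CPM 45.3% were higher and 29% lower. The groups overlapped for 7 of the 23 eIF4 genes, against 6918 of all 20012 genes tested. Of the 8380 genes with a mean of at least 20 CPM, 2013 overlapped. The scaffold genes moved together. All 5 eIF4G genes rose, with log2 fold changes between 0.25 for eif4g3a and 0.48 for eif4g1a. The gene eif4g1a (ENSDARG00000006200, chromosome 2, 16798652 to 16842699), whose product bridges eIF4E, eIF4A and eIF3, stood at 402, 421 and 441 CPM in wbp11-MO, against 312, 297 and 298 CPM in control-MO. Its groups were well apart, and its log2 fold change was 0.48 ± 0.05 (± SE, adjusted p = 1.09e-09 by edgeR). The genes eif4g2a and eif4g2b, whose product lacks the eIF4E-binding part, rose by 0.34 and 0.45 on the log2 scale, and eif4g3b rose by 0.34.

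Among the cap-binding genes 4 of 6 tested rose (66.7%, against 30.5% of all genes tested) and 0 fell (against 31.2%). With a mean of at least 20 CPM 45.3% of all genes were higher and 29% lower. The 3 genes closest to canonical eIF4E by name, eif4ea, eif4eb and eif4e1c, rose. For eif4ea (chromosome 14, 43577164 to 43586150) the level was 47.9, 47.7 and 44.8 CPM in wbp11-MO, against 26.6, 28.3 and 28.1 CPM in control-MO, with groups far apart and a log2 fold change of 0.76 ± 0.082 (± SE, adjusted p = 1.86e-09 by edgeR). For eif4e1c it averaged 83.4 ± 4.52 CPM in wbp11-MO and 64.4 ± 2.23 CPM in control-MO (SD, n = 3 each), with a log2 fold change of 0.37 ± 0.064 (± SE, adjusted p = 8.51e-06 by edgeR). For eif4eb the groups overlapped, at 25.0, 23.9 and 25.9 CPM in wbp11-MO and 19.9, 17.6 and 24.2 CPM in control-MO, and the call (edgeR adjusted p = 0.0343) was lost under 6 of 13 alternatives, with adjusted p between 0.00463 and 0.188. Among these were the fits lacking wbp11-MO replicate 1 or 3 (edgeR adjusted p = 0.0774 and 0.11) and lacking control-MO replicate 1 or 2 (edgeR adjusted p = 0.104 and 0.188). The gene eif4e2, whose product binds the cap without eIF4G and represses, averaged 20.9 ± 2.08 CPM in wbp11-MO and 20.9 ± 0.702 CPM in control-MO (SD, n = 3 each) and did not pass (edgeR adjusted p = 0.978). Its related record eif4e2rs1 rose by 0.48 ± 0.094 on the log2 scale (± SE, adjusted p = 6.28e-05 by edgeR). The gene eif4e3 averaged 59.1 ± 0.278 CPM in wbp11-MO and 59.8 ± 1.31 CPM in control-MO (SD, n = 3 each) and did not pass (edgeR adjusted p = 0.834).

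The gene with the largest rise among all members encodes an eIF4E-binding shuttle protein, the eIF4E transporter, which carries eIF4E into the nucleus and sits in processing bodies. This gene, eif4enif1 (ENSDARG00000016177, chromosome 6, 40922572 to 40947671), had 58.7, 59.3 and 59.7 CPM in wbp11-MO, against 32.7, 26.1 and 25.5 CPM in control-MO. All wbp11-MO libraries lay close together and above all controls, and the log2 fold change was 1.07 ± 0.085 (± SE, adjusted p = 2.42e-12 by edgeR). Its record shares 400 bases with sfi1 on the opposite strand, which had 1787 counts over the 6 libraries. Reads from that stretch cannot be assigned without a strand setting.

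The helicase genes of eIF4A did not move as 1 group. The copies eif4a1a and eif4a1b encode the helicase that unwinds messenger RNA leaders. The copy eif4a1a (ENSDARG00000092115, chromosome 7, 26510827 to 26518086) had 533, 540.3 and 539 CPM in wbp11-MO, against 444, 448 and 441 CPM in control-MO, and a log2 fold change of 0.27 ± 0.046 (± SE, adjusted p = 6.55e-06 by edgeR). The copy eif4a1b (ENSDARG00000003032, chromosome 5, 24208413 to 24219344) had 283, 276 and 285 CPM in wbp11-MO, against 463, 441 and 452 CPM in control-MO. It was the most abundant eIF4 gene per length in control-MO, and its log2 fold change of -0.68 ± 0.048 (± SE, adjusted p = 1.56e-13 by edgeR) had the smallest adjusted p of all 60 members. Summed per length, the copies averaged 275.2 ± 1.90 CPM per kilobase in wbp11-MO and 324 ± 4.29 in control-MO (SD, n = 3 each). The ratio was 0.850, so the fall of eif4a1b was larger than the rise of eif4a1a. The size of that ratio depends on the gene lengths, 3544 bases for eif4a1a and 2276 for eif4a1b. The paralog eif4a2 averaged 43.7 ± 2.58 CPM in wbp11-MO and 43.6 ± 1.26 CPM in control-MO (SD, n = 3 each) and did not pass (edgeR adjusted p = 0.966).

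The gene eif4a3 shares the name but encodes the helicase of the exon junction complex, which marks spliced messenger RNA. It (ENSDARG00000102978, chromosome 11, 44878571 to 44898129) stood at 164, 163 and 159 CPM in wbp11-MO, against 98.2, 101 and 96.3 CPM in control-MO. The groups were far apart, with a log2 fold change of 0.72 ± 0.055 (± SE, adjusted p = 7.77e-13 by edgeR). Of 8 tested records of its partners, 7 rose (87.5%, against 30.5% of all genes tested) and 1 fell (12.5%, against 31.2%). Among genes with a mean of at least 20 CPM 45.3% were higher and 29% lower. The median log2 fold change of the partner records was 0.41. Among these partners the core subunit gene magoh averaged 76.4 ± 1.4 CPM in wbp11-MO and 52.1 ± 1.68 CPM in control-MO and rose (edgeR adjusted p = 1e-08). The list matched a pair of records for RNPS1, which went opposite ways, rnps1 with a log2 fold change of 1.17 and RNPS1 (ENSDARG00000100188) with -1.04, and reads of these copies may be split. The core partner genes rbm8a and casc3 rose by 0.42 and 0.40 on the log2 scale.

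Cofactors and brakes of eIF4F followed no common direction. The helicase cofactor gene eif4bb (ENSDARG00000010194, chromosome 6, 39064824 to 39080701) had 173, 187 and 186 CPM in wbp11-MO, against 126, 115 and 128 CPM in control-MO, and rose by 0.56 ± 0.057 on the log2 scale (± SE, adjusted p = 4.65e-10 by edgeR). The other copy, eif4ba, averaged 33.5 ± 1.68 CPM in wbp11-MO and 38.4 ± 5.11 CPM in control-MO (SD, n = 3 each). Its groups did not overlap, but the highest wbp11-MO library, 34.6 CPM, was close to the lowest control-MO library, 34.9 CPM. The gene eif4ba was not called (edgeR adjusted p = 0.0578). It passed as lower under 5 of 13 alternatives, among them the fits lacking control-MO replicate 1 or 2 (edgeR adjusted p = 0.0427 and 0.0194), with adjusted p between 0.0114 and 0.468. The related cofactor gene eif4h did not pass, at 124 ± 6.58 CPM in wbp11-MO and 119 ± 4.68 CPM in control-MO (SD, n = 3 each) (edgeR adjusted p = 0.351).

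Of the 4 genes for 4E-BPs, which block eIF4E from binding eIF4G, 2 rose (50%) and 1 fell (25%). Over all genes tested 30.5% were higher and 31.2% lower, and with a mean of at least 20 CPM 45.3% and 29%. The 4E-BP shares lay near those of abundant genes, though eif4ebp3, the gene that fell, averaged below 20 CPM in both groups. These counts by themselves are no result about the 4E-BP genes. The gene eif4ebp3 (ENSDARG00000054916, chromosome 21, 26401332 to 26406304) had 8.79, 10.3 and 9.49 CPM in wbp11-MO, against 17.3, 14.8 and 15.5 CPM in control-MO. Its groups did not overlap, and its log2 fold change was -0.74 ± 0.14 (± SE, adjusted p = 2.69e-05 by edgeR). The gene eif4ebp3l moved the other way, with 51.3, 55.3 and 49.9 CPM in wbp11-MO, against 32.2, 35.5 and 36.2 CPM in control-MO, and a log2 fold change of 0.59 ± 0.078 (± SE, adjusted p = 1.02e-07 by edgeR). The gene eif4ebp1 had overlapping groups, 84.6, 77.3 and 84.6 CPM in wbp11-MO and 74.3, 64.2 and 77.7 CPM in control-MO, and its call (edgeR adjusted p = 0.019) was lost under 5 of 13 alternatives, with adjusted p between 0.0069 and 0.154. Among these were the fits lacking wbp11-MO replicate 1 or 3 (edgeR adjusted p = 0.082 and 0.0843) and with control-MO replicate 2 left out (edgeR adjusted p = 0.154). The most abundant of them per length, eif4ebp2, averaged 289.9 ± 5.32 CPM in wbp11-MO and 281 ± 9.9 CPM in control-MO (SD, n = 3 each) and did not pass (edgeR adjusted p = 0.46). Summed per length, 4E-BP transcripts stood at 2.42, 2.33 and 2.29 times those of eif4ea, eif4eb and eif4e1c together in the wbp11-MO libraries, against 3.03, 2.92 and 2.87 times in the control-MO libraries. This ratio needs no library scaling, and its groups did not overlap. It was chosen after its values were seen.

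Regulators upstream of eIF4 were listed apart. Of 17 genes of the mTOR and MNK kinases, poly(A)-binding proteins and related regulators, 10 rose (58.8%, against 30.5% of all genes tested) and 1 fell (5.88%, against 31.2%), with a median log2 fold change of 0.26. Their median level was 85.1 CPM, and among genes with a mean of at least 20 CPM 45.3% were higher and 29% lower. The kinase gene mtor, at 86.4 ± 4.45 CPM in wbp11-MO and 83.8 ± 5.21 CPM in control-MO, did not pass (edgeR adjusted p = 0.557). The gene of its partner, rptor, at 23.0 ± 1.56 CPM in wbp11-MO and 23.7 ± 3.18 CPM in control-MO, did not pass either (edgeR adjusted p = 0.77). The gene mknk2b, of an MNK kinase that phosphorylates eIF4E, averaged 107 ± 12.9 CPM in wbp11-MO and 49.0 ± 2.73 CPM in control-MO, and pdcd4b, of an eIF4A inhibitor, averaged 82.1 ± 5.0 CPM in wbp11-MO and 41.1 ± 0.342 CPM in control-MO, and both rose (edgeR adjusted p = 3.1e-14 and 7.75e-14). The poly(A)-binding protein gene pabpc1b fell, at 52.3 ± 3.19 CPM in wbp11-MO and 122 ± 3.2 CPM in control-MO (edgeR adjusted p = 6.39e-17), while the far more abundant pabpc1a rose by 0.21 on the log2 scale.

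**Figure D4:**
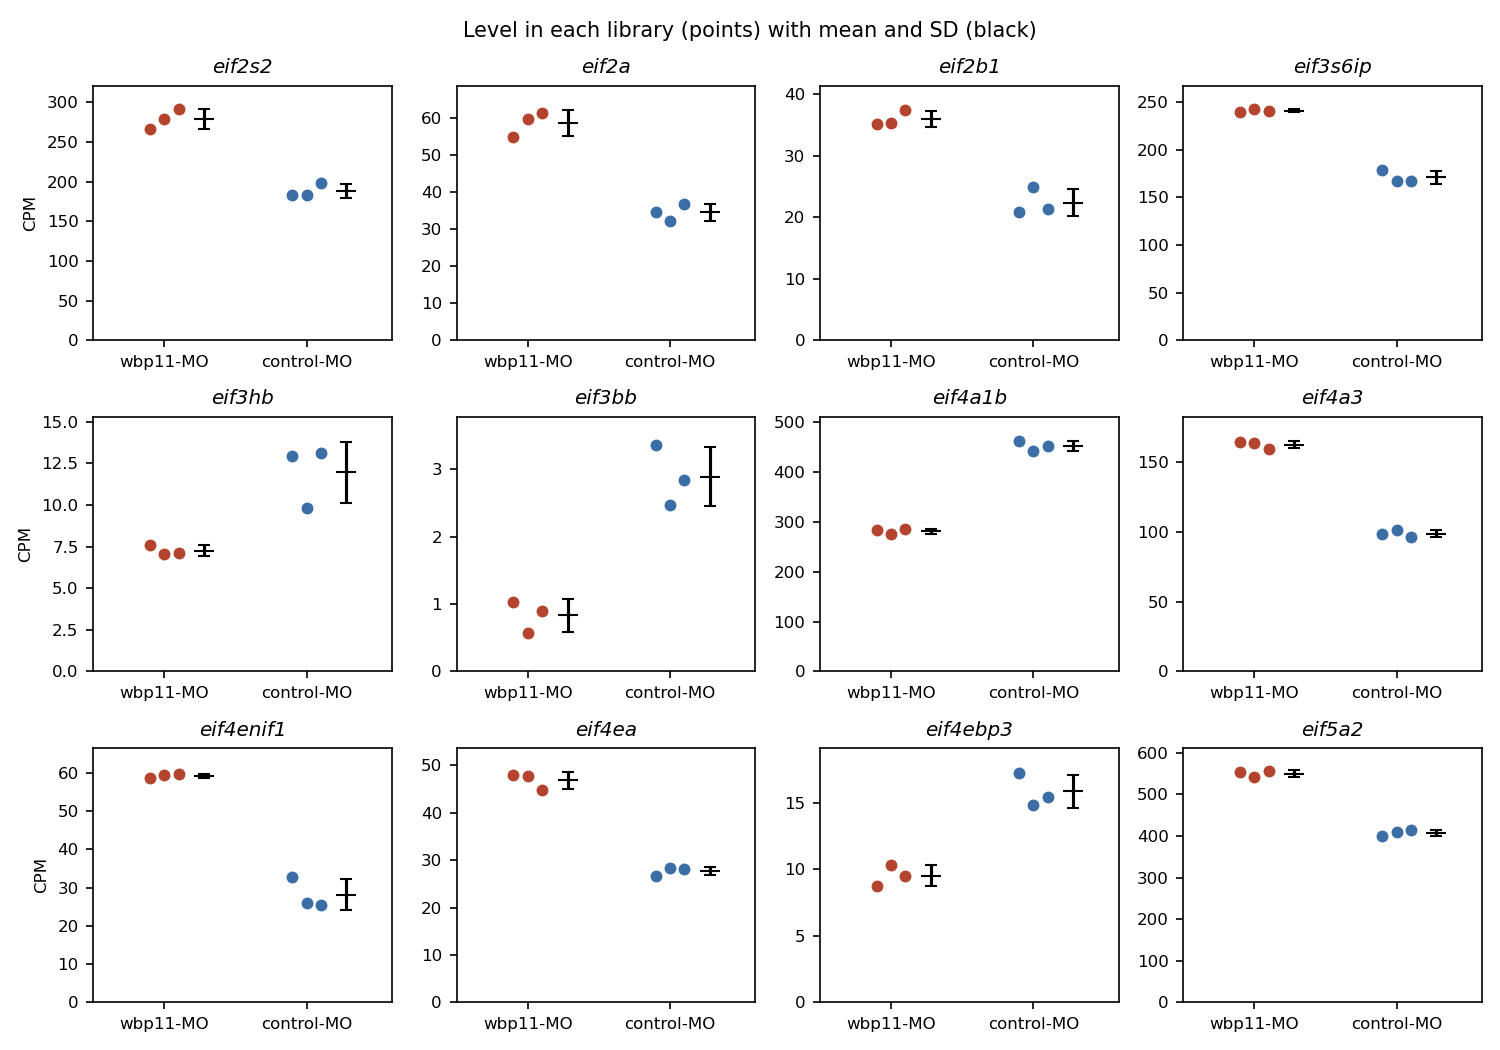
Level (CPM, y axis from 0) of 12 initiation factor genes in each library, wbp11-MO left and control-MO right, with points for libraries and black marks for mean and SD. In all 12 panels the groups are apart, with eif3hb, eif3bb, eif4a1b and eif4ebp3 lower in wbp11-MO and the other 8 genes higher. All 12 are called members picked for display, so their separation is no result about the members. The groups did not overlap for 51 of the 60 members tested and for 65.4% of all genes tested.

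Among the remaining 9 genes, 6 rose (66.7%, against 30.5% of all genes tested) and 0 fell (against 31.2%). Their median log2 fold change was 0.22. Among genes with a mean of at least 20 CPM 45.3% were higher and 29% lower. The genes eif5a and eif5a2 encode eIF5A, the hypusine-bearing protein that helps ribosomes through difficult peptide bonds during elongation. The gene eif5a2 (ENSDARG00000056186, chromosome 2, 25839193 to 25845337) had 554, 541 and 556 CPM in wbp11-MO, against 399, 409 and 414 CPM in control-MO, with groups far apart and a log2 fold change of 0.43 ± 0.047 (± SE, adjusted p = 2.03e-09 by edgeR). The gene eif5a was the most abundant member per length, averaging 391.7 FPKM in wbp11-MO and 376.6 FPKM in control-MO in the deposited FPKM values. It had 900.2, 933 and 942 CPM in wbp11-MO, against 853, 801 and 884 CPM in control-MO, and its small log2 fold change of 0.13 ± 0.048 (± SE, adjusted p = 0.0195 by edgeR) was lost under 4 of 13 alternatives, with adjusted p between 0.00469 and 0.234. These were library totals and the fits without wbp11-MO replicate 2 or 3 or control-MO replicate 2 (0.0645, 0.0761 and 0.0778 as edgeR adjusted p).

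The subunit-joining GTPase gene eif5b (ENSDARG00000016548, chromosome 1, 45925150 to 45959721) stood at 141, 130.2 and 147 CPM in wbp11-MO, against 105, 101 and 94.3 CPM in control-MO. It rose by 0.48 ± 0.06 on the log2 scale (± SE, adjusted p = 3.51e-08 by edgeR). The record of eif5b shares 818 bases with arhgef7b on the same strand, which had 4653 counts over the 6 libraries. How reads of that stretch were assigned is not given. The gene eif6, whose product keeps the large ribosomal subunit from joining too early and serves in its maturation, is on chromosome 6 at 52339548 to 52348651. It had 45.6, 53.4 and 54.5 CPM in wbp11-MO, against 35.3, 32.1 and 38.3 CPM in control-MO, with groups apart and a log2 fold change of 0.54 ± 0.084 (± SE, adjusted p = 2.14e-06 by edgeR). The gene eif5, of the GTPase-activating factor, had 210.5, 209.7 and 219 CPM in wbp11-MO, against 231, 229.8 and 226 CPM in control-MO. Every wbp11-MO library lay below every control-MO library, but the gene did not pass (log2 fold change -0.10 ± 0.05, ± SE, adjusted p = 0.0728 by edgeR). It passed as lower with library totals, the strict filter and limma-voom, with adjusted p between 0.00232 and 0.166 over the alternatives.

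Of the 4 genes with eif1 names, which include eif1ad beside those of eIF1 and eIF1A, 2 rose (50%) and 0 fell. Over all genes tested 30.5% were higher and 31.2% lower, and with a mean of at least 20 CPM 45.3% and 29%. The share of eif1 genes that rose thus lay near that of abundant genes and by itself is no result about them. The gene named eif1b, paired with the symbol EIF1 in the gene-name list, was the second most abundant member per length and averaged 485 ± 18.5 CPM in wbp11-MO and 469.7 ± 26.9 CPM in control-MO (SD, n = 3 each) without passing (edgeR adjusted p = 0.44). Both copies of eIF1A rose. The copy eif1axa had 37.3, 32.3 and 39.4 CPM in wbp11-MO, against 30.3, 24.9 and 32.0 CPM in control-MO, a log2 fold change of 0.32 ± 0.098 (± SE, adjusted p = 0.00594 by edgeR), and its call was lost without wbp11-MO replicate 3 or control-MO replicate 2 (0.0551 and 0.0553 as edgeR adjusted p, and 0.00182 to 0.0553 across alternatives). The call of eif1axb (log2 fold change 0.13) was lost under 7 of 13 alternatives, among them the fits without any 1 of the wbp11-MO libraries or without control-MO replicate 2 (adjusted p = 0.0886, 0.075, 0.111 and 0.265 by edgeR, and 0.0303 to 0.343 across alternatives). The eIF1A-domain gene eif1ad averaged 21.2 ± 0.276 CPM in wbp11-MO and 18.2 ± 0.445 CPM in control-MO (SD, n = 3 each), with groups apart but no call (edgeR adjusted p = 0.0728).

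The balance between gene copies was compared in 12 pairs, as the share of the second copy in the per-length level of the pair, a measure free of library scaling. In 9 of the 12 pairs the groups did not overlap. For single gene levels this held for 65.4% of all genes tested, so the count by itself is no result about the pairs. The exact two-sided permutation test of the log2 ratio cannot give less than p = 0.1 with 3 libraries against 3, and the smallest adjusted p over the 12 pairs was 0.133, so no pair could pass. The widest shift in share was in the eIF4A1 pair, where eif4a1b made up 45.3%, 44.3% and 45.2% in the wbp11-MO libraries, against 61.9%, 60.5% and 61.5% in the control-MO libraries. This reversed which copy was the more abundant per length. That rank depends on the gene lengths, 3544 bases for eif4a1a and 2276 for eif4a1b. By CPM the control-MO levels of the copies were close, averaging 444 for eif4a1a and 452 for eif4a1b. For the h subunit pair, eif3hb made up 3.58 ± 0.192% in wbp11-MO and 7.17 ± 1.07% in control-MO (SD, n = 3 each). For the b subunit pair, eif3bb made up 0.305 ± 0.0831% in wbp11-MO and 1.16 ± 0.165% in control-MO. The share of eif4eb in its pair with eif4ea was 36.5 ± 1.71% in wbp11-MO and 44.3 ± 3.97% in control-MO, and that of eif5a2 was 30.4 ± 0.646% in wbp11-MO and 26.2 ± 0.992% in control-MO. The pairs of eif1ax, eif3j and eif4g3 copies had overlapping groups.

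**Figure D5:**
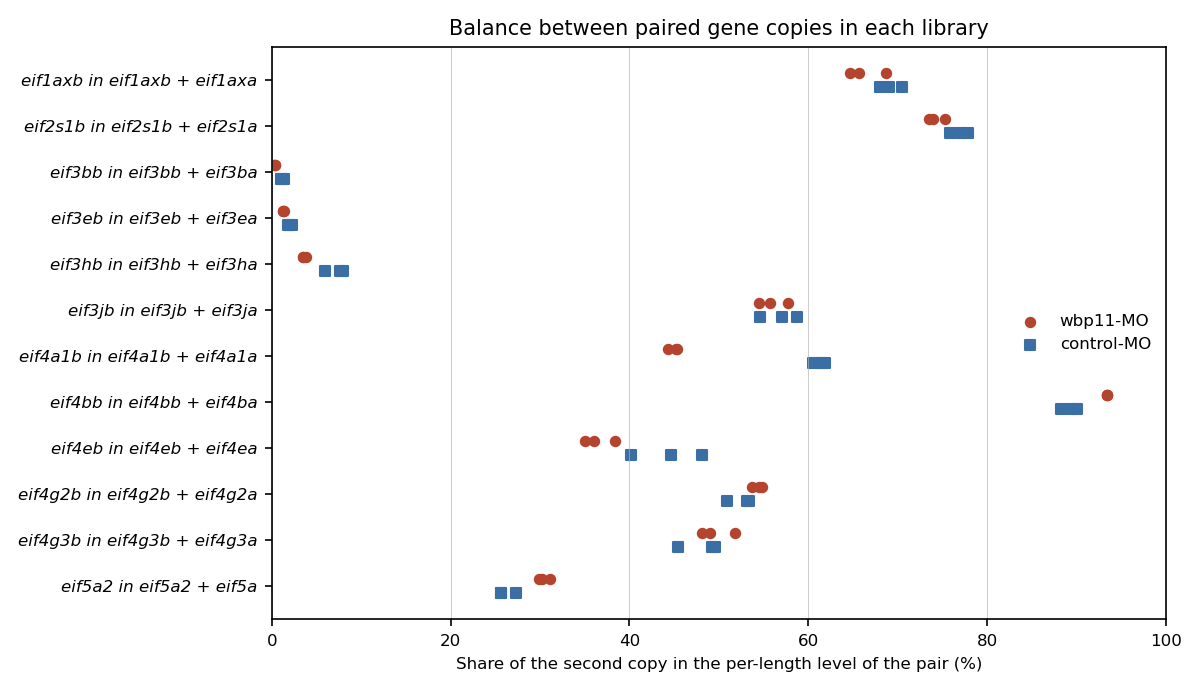
Share of the second copy in the per-length level of each of 12 gene pairs (x axis, percent), with 1 point per library, circles for wbp11-MO above squares for control-MO. The eif4a1b row shows the widest gap, with wbp11-MO libraries between 44.3% and 45.3% and control-MO libraries between 60.5% and 61.9%, and 3 pairs overlap.

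Factors of later and neighbouring steps of translation were listed apart. Among 14 tested genes with elongation factor names, the kinase gene eef2k included, 4 rose (28.6%, against 30.5% of all genes tested) and 5 fell (35.7%, against 31.2%). Their median log2 fold change was -0.044 and their median level 94.2 CPM. Among genes with a mean of at least 20 CPM 45.3% were higher and 29% lower, with a median log2 fold change of 0.12. The elongation factor kinase gene eef2k averaged 223 ± 10.5 CPM in wbp11-MO and 90.1 ± 7.17 CPM in control-MO and eef2a.1 averaged 70.9 ± 1.95 CPM in wbp11-MO and 32.8 ± 0.352 CPM in control-MO, and both rose (edgeR adjusted p = 3.47e-18 and 1.28e-14). The gene eef1a1a, a copy of the factor that carries aminoacyl transfer RNA, fell, at 20.8 ± 2.73 CPM in wbp11-MO and 41.5 ± 1.67 CPM in control-MO (edgeR adjusted p = 2.08e-10), whereas the abundant copy eef1a1l1 did not pass, at 6488 ± 275 CPM in wbp11-MO and 6087 ± 293 CPM in control-MO (edgeR adjusted p = 0.0725). Of 6 termination and rescue factor genes 4 rose (66.7%, against 30.5% of all genes tested) and 0 fell (against 31.2%), with a median of 0.34. The release factor gene etf1b averaged 357 ± 11.9 CPM in wbp11-MO and 199 ± 1.59 CPM in control-MO (edgeR adjusted p = 1.98e-15). Of 6 accessory factors of initiation and recycling, 3 rose (50%, against 30.5%) and 1 fell (16.7%, against 31.2%), with a median of 0.13. The median level of that list was 117.8 CPM. Its share that rose lay near the 45.3% of abundant genes and by itself is no result about the list. The recycling ATPase gene abce1 averaged 235 ± 7.53 CPM in wbp11-MO and 148 ± 4.45 CPM in control-MO (edgeR adjusted p = 1.81e-12). The mitochondrial initiation factor gene mtif2, at 19.1 ± 0.947 CPM in wbp11-MO and 22.3 ± 1.66 CPM in control-MO, did not pass (edgeR adjusted p = 0.0665). Nor did mtif3, at 11.1 ± 0.876 CPM in wbp11-MO and 13.1 ± 1.58 CPM in control-MO (edgeR adjusted p = 0.141). Differences between these lists and the initiation factors were not tested.

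The members are spread over 21 chromosomes. The closest neighbours among them, eif1axa and eif4a1b on chromosome 5, lie 199415 bases apart, and eif1axa rose while eif4a1b fell. Of the 61 records, 9 overlap another gene record, 4 of them on the same strand. Records on the opposite strand share 104057 bases with eif3hb, 6400 with eif1axa and 3176 with eif3k, the whole span of each. Those opposite-strand records had 10, 21 and 7 counts over the 6 libraries. No strand setting is given for reads of these spans, so the levels of these members are uncertain. The record eif3ja shares 6760 bases with a record named EIF3J (1 of many), which the rule left out and which had 0 counts in all 6 libraries, and how reads of that stretch were assigned is not given. The record zgc:56676, paired with the symbol EIF1B, was also left out by its name and averaged 119.7 ± 0.567 CPM in wbp11-MO and 111 ± 6.82 CPM in control-MO without passing (edgeR adjusted p = 0.0928).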

How the data were processed

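Poly(A) RNA from 6 pools of 50 zebrafish embryos was sequenced, 3 pools for each of wbp11-MO and control-MO. The deposited table gives read counts and FPKM per gene and library. Per the submitters' processing notes, FastQC 0.12.1, HTSeq 2.0.5 and the build GRCz11 were used, and the sources used here name no aligner, annotation release, strand setting or rule for reads with several matches. The deposited FPKM values equal the counts divided by gene length and by the library total (largest relative difference 5.15e-15).

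Counts were tested with edgeR 4.0.16 (quasi-likelihood F-test, TMM factors, filterByExpr) in R 4.3.3, with Benjamini-Hochberg adjustment over 20012 genes and a threshold of 0.05. CPM values use TMM-scaled library sizes. Of 25432 genes, 1258 had no count. The scripts were tested on simulated data in which 200 genes were changed. In the present data 12349 genes were called, so that test did not cover changes this widespread. Alternatives were other scalings and filters, DESeq2 1.42.0, limma-voom (limma 3.58.1), a replicate block and leaving out each library. The SE of a fold change covers both counting error and the spread between libraries.

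Members were set by symbol, and members, lists and tests were chosen with earlier results of these data known. Full values were given for up to 4 called members per group and direction with the smallest adjusted p, the most abundant per length in each group, and pairs that went opposite ways. The members eif4ea, eif4ebp1, eif4ebp3l, eif4eb, eif2s3 and eif5 were given in full after their values were seen. Promoter and protein sequences were not used here.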

Additional observations from a re-analysis of the deposited data

How the results depend on the processing

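Of the 48 members called, 38 kept their call under all 13 alternatives and 10 lost it under at least 1. Of the 12 not called, 4 passed under at least 1. With library totals in place of TMM factors 35 members were called higher, against 44, and 7 lower, against 4. The number called higher in the eIF2 group was then 7, against 10, and 1 gene was called lower among the eIF1, eIF5 and eIF6 genes. That last count was also 1 with the strict filter and with limma-voom. Without 1 library at a time the number of those genes called higher ran from 3 to 6, the lowest without wbp11-MO replicate 3 and without control-MO replicate 2. The cause was not tested.

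Members near 0 changed sign, none of them called in any of these fits. With library totals the log2 fold change was -0.022 for eif2s3, -0.026 for eif1b, -0.068 for eif4a2, -0.029 for eif4ebp2, -0.069 for eif4e2 and -0.0086 for eif4h. With the strict filter it was -0.0041 for eif4a2 and -0.0047 for eif4e2. For eif4e2 it was -6e-04 with limma-voom and -1e-04 with the replicate block. Without 1 library at a time it ran from -0.053 to 0.034 for eif4a2, from -0.081 to 0.053 for eif4e2 and from -6e-04 to 0.073 for eif1b.

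Deviations of same-numbered libraries correlated at -0.0231, -0.0513 and 0.0169, and 1 of 6 libraries correlated best with its own number. The counts thus gave no sign of pairing by replicate number. They cannot show whether same-numbered pools shared a clutch or a preparation. With the replicate block 44 members were called higher and 4 lower, and 5977 of all genes higher and 6119 lower. Low counts limit eif3bb, and pooled embryos limit all comparisons to differences between pools.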
